A study of Mus musculus with 46 samples.

Results

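The liver of P195A/p150- mice was compared with that of P195A/p150+ mice at postnatal day 23, over all expressed genes. Members were 14 of the 46 sequencing libraries of the series, 7 livers of each genotype from 14 separate animals. They were chosen by tissue and genotype label. A library labelled liver of p150-negative animal 2 was left out after inspection, because it held kidney genes at 8281 CPM (a gene's counts scaled to a common library total), adrenal genes at 2602 CPM and liver genes at 9.0 CPM. All animals were C57BL/6, and the genotype names P195A_p150neg and P195A_p150pos give both groups the P195A change in Adar. The names tell the groups apart by the p150 form of the protein, and no animal without P195A entered the comparison. The labels do not give the sex of the animals.

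Adar encodes ADAR1, which converts adenosine to inosine in double-stranded RNA. Its interferon-inducible isoform p150 carries a Z-alpha domain that binds left-handed nucleic acids, and P195A lies in that domain. Unedited self RNA can be read as viral by the sensor MDA5, which leads to type I interferon. The liver is a target of such signals as well as of cytokines: hepatocytes make most plasma proteins, detoxify drugs and steroids, and set lipid, glucose and nitrogen balance. In infection or injury they make acute phase proteins under interleukin-6, interleukin-1 and the factors STAT3, NF-kB and C/EBP. In growth they make insulin-like growth factor 1 under growth hormone.

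Adar mRNA ran from 1.88 to 15.8 CPM with a median of 7.62 in p150-negative livers and from 5.4 to 19.8 with a median of 10.9 in p150-positive livers. The groups overlapped, and the log2 fold change of -0.59 ± 0.34 (SE) did not pass the test (adjusted p = 0.317). Counts sum over isoforms, so this gene-level value is no check of the p150 genotype. Library totals ran from 532311 to 3789058 counts in p150-negative and from 1682418 to 4304331 in p150-positive livers. Summed levels of Alb, Apoa1, Serpina1c and Cps1, which mark hepatocytes, lay between 34639 and 66112 CPM and between 45866 and 66690 CPM. A short panel of kidney genes reached at most 9.63 CPM and one of adrenal genes at most 4.17 CPM, so each of the 14 libraries carried the markers of its label. A longer kidney and adrenal list summed to 17.84 to 52.55 CPM in p150-negative and 11.27 to 99.67 CPM in p150-positive livers. Its 1 tested member, Akr1b7, was higher (2.91 ± 0.45, adjusted p = 0.000146). Genes of exocrine pancreas, stomach and intestine summed to 80.63 to 482.8 CPM against 90.39 to 205.3 CPM, and neither of the 2 tested was called. Of the 14, 3 stood apart. The p150-positive liver of animal 13 lay farthest from its group, the p150-positive liver of animal 12 had high interferon-gamma genes, and the p150-negative liver of animal 16 was the shallowest. Xist exceeded Y-linked genes in 4 of 7 p150-negative and 3 of 7 p150-positive livers.

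Of 9843 genes with enough counts to be tested, 683 (6.94%) were higher and 469 (4.76%) lower in p150-negative livers at an adjusted p under 0.05. The list counts below are to be read beside these shares. Together these were 1152 genes (11.7%), and 2292 (23.3%) had an unadjusted p under 0.05. Increases were larger than decreases at the median: the median log2 fold change was 1.54 among genes called higher, -1.07 among genes called lower and -0.04 over all tested genes. At least 2-fold changes were 532 (5.40%) up and 263 (2.67%) down, and at least 8-fold changes were 63 (0.640%) up and 36 (0.366%) down. CPM ranges of the groups were fully separate for 241 genes (2.45%) with p150-negative livers above and for 162 (1.65%) with them below. Of the genes not called, 5767 (58.6% of all tested) had a 95% interval within 1 log2 unit of 0, so at least 2-fold changes lay outside that interval for them. Animal identifiers carry 4 prefixes, each with both genotypes, and the labels do not say what a prefix marks. The mean difference had the same direction within all 4 prefixes for 592 of the 683 higher genes (86.7%) and 369 of the 469 lower genes (78.7%). These genes were called on the same livers, which favours such agreement, so the shares are a description only.

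**Figure D1:**
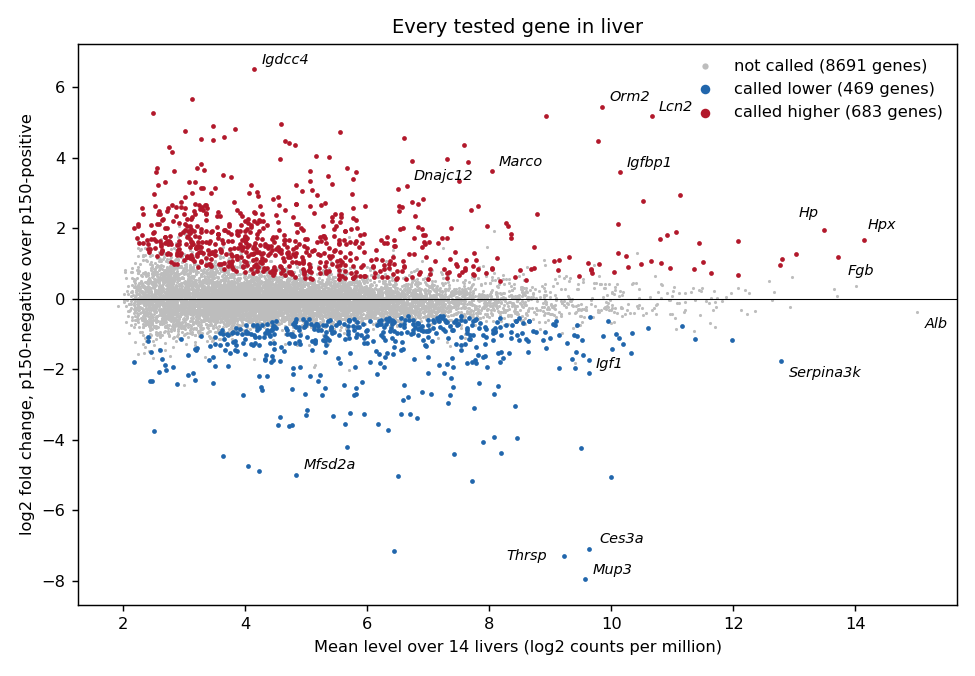
Each point is 1 of the 9843 tested genes; the x axis is its mean level over 14 livers in log2 CPM and the y axis its log2 fold change, p150-negative over p150-positive. Red and blue points are the 683 genes called higher and the 469 called lower; Mup3, Thrsp, Ces3b and Ces3a lay more than 7 log2 units below 0, while Alb, the most abundant gene, was not called.

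More of the message pool lay in few genes in p150-negative livers. The 20 most abundant genes held 22.8 ± 3.42% of counts (SD, n = 7) against 18.2 ± 2.08% (n = 7; two-sided exact permutation p = 0.00874, where the smallest possible is 0.000583). With the library of animal 2 added the exact permutation p was 0.19. After thinning all livers to the depth of the shallowest, 5612 ± 493 genes (n = 7) had at least 10 counts against 5582 ± 171 (n = 7), with a two-sided exact permutation p of 0.881. Spread within a group, as 1 minus the Spearman correlation of a liver with the mean of the other livers of its group, was 0.0643 ± 0.0201 against 0.0714 ± 0.0463 (two-sided permutation p = 0.834, n = 7 and 7). Distances within a group share livers and were not recomputed on regrouping, so the p of this measure is not exact. In that measure animal 13 stood at 0.174 and animal 16 at 0.108. Neither of these last p values shows that the groups were alike.

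Plasma proteins that hepatocytes release in inflammation were among the most abundant increases. Of 30 acute phase genes, 29 were tested and 23 were called higher, with none lower and a median log2 fold change of 1.91 (-0.04 over all tested genes). Their summed level was 63440 to 110800 CPM in p150-negative livers and 24600 to 34910 CPM in p150-positive livers. Lcn2, which captures bacterial iron-siderophores, ran from 1820 to 5254 CPM with a median of 2488 in p150-negative livers and from 23.9 to 234 with a median of 66.5 in p150-positive livers, a log2 fold change of 5.17 ± 0.55 (adjusted p = 3.26e-06). Every p150-negative liver lay above every p150-positive one. Saa2, a serum amyloid A that joins high-density lipoprotein, ran from 109 to 2376 CPM (median 634) against 3.96 to 52.6 CPM (median 21.4; 5.17 ± 0.68, adjusted p = 3.09e-05). Orm2, an orosomucoid that carries basic drugs, ran from 404 to 3969 CPM (median 1348) against 2.43 to 118 CPM (median 18.4; 5.44 ± 0.81, adjusted p = 0.000101). Both had separate groups, with a wide spread inside each.

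The promoters of these genes are shown because C/EBP factors are known to drive many acute phase genes. A C/EBP dimer site was searched as TTGCNCAA on either strand (TTGNGCAA on the other). The windows reach from 250 bases before the start of transcription to 50 bases after it, from RefSeq on GRCm38.p6, printed 5' to 3' on the strand of the gene. Capitals mark the match.
Lcn2 (chr2:32387690-32387989, minus strand): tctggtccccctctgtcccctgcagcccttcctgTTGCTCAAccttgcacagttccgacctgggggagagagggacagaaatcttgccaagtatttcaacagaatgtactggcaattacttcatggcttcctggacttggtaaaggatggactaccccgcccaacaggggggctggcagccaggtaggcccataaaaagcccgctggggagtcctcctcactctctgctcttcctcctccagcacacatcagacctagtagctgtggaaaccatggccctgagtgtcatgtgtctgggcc
Saa2 (chr7:46751583-46751882, plus strand): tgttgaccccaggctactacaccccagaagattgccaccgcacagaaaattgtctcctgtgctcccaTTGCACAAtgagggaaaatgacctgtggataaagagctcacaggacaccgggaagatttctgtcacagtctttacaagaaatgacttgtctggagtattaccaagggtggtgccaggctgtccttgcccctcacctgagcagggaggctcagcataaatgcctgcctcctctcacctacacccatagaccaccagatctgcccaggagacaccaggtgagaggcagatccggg
Orm2 (chr4:63362199-63362498, plus strand): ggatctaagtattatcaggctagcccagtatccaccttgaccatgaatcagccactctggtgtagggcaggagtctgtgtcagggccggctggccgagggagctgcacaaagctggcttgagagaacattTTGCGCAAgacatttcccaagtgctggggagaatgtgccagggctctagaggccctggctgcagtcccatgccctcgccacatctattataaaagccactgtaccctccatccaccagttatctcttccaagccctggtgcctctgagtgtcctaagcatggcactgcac
Fgb (chr3:83049814-83050113, minus strand): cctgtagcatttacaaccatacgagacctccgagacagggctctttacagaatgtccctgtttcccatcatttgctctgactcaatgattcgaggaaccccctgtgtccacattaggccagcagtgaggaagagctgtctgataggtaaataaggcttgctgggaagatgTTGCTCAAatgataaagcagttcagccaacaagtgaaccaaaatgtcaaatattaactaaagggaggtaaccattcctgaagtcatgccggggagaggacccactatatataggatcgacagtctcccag
The match began at -216 in Lcn2, -183 in Saa2, -120 in Orm2 and -80 in Fgb, counted from the start. Of 23 acute phase genes with a promoter in the table, 6 held the site (26.1%): Lcn2, Saa1, Saa2, Saa4, Orm2 and Orm3. The share was 5.13% of 526 genes called higher, 3.68% of 380 called lower, 2.54% of 7726 tested genes and 2.92% of all 27025 promoters. The site was also in 4 of 33 cytochrome P450 promoters (12.1%) and 2 of 17 cholesterol synthesis promoters (11.8%). Members of both those lists were called lower more often than higher. It was in 1 of 19 ATF4 targets, and in none of 39 interferon-stimulated, 15 NF-kB or 18 growth hormone axis promoters. Saa4 carried a match without passing the test (0.66 ± 0.28, adjusted p = 0.156). A match describes letters only, not binding. The site was in Fgb too, which is in the coagulation list.

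Proteins that clear hemoglobin and heme were among the most abundant messages. Hp, haptoglobin, which binds free hemoglobin, ran from 9737 to 27730 CPM with a median of 17112 in p150-negative livers and from 4013 to 6553 with a median of 4454 in p150-positive livers (1.95 ± 0.26, adjusted p = 3.23e-05). Hpx, hemopexin, which binds heme, ran from 19782 to 33719 CPM (median 26975) against 6593 to 13305 CPM (median 8286; 1.66 ± 0.25, adjusted p = 0.000105). The groups did not overlap for either gene. Serpina3n, a protease inhibitor, rose by 2.77 ± 0.30 (adjusted p = 3.2e-06), Lbp, which hands bacterial lipopolysaccharide to CD14, by 1.73 ± 0.22 (1.91e-05) and Cd14 itself by 4.06 ± 0.38 (8.3e-07). Acute phase members that did not pass were Crp (-0.17 ± 0.16), Agt (0.06 ± 0.18), Saa4, Mt1 (1.31 ± 0.45, adjusted p = 0.0698), Mt2 (0.78 ± 0.76) and Hamp. Crp, C-reactive protein, is a minor acute phase protein in mice. Hamp, hepcidin, the hormone that blocks iron export, stood at 228 to 607 CPM in p150-negative livers. In p150-positive livers it was at most 3.72 CPM in 5 animals but 217 and 577 CPM in animals 7 and 15, and it was not called (1.91 ± 1.11, adjusted p = 0.33). Without animal 15 it was called.

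Other secreted proteins moved both ways. Of 25 tested coagulation and fibrinolysis genes, 5 were higher and 1 lower (median 0.12). The 3 fibrinogen chains rose together: Fgb ran from 13351 to 26834 CPM (median 16891) against 6853 to 10660 CPM (median 7721), a log2 fold change of 1.18 ± 0.24 (adjusted p = 0.00204), with Fga at 1.28 ± 0.23 and Fgg at 1.14 ± 0.23. Kininogens Kng1 and Kng2 rose as well (0.95 and 1.31 ± 0.25), while Klkb1, the prekallikrein that cleaves them, fell by 1.47 on the log2 scale (± 0.47, adjusted p = 0.0457). Klkb1 lost its call when animal 1, 3, 8, 9, 11, 13, 14 or 15 was left out. Without p150-positive animals 12 and 13 the count of higher coagulation genes was 8.

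Complement genes moved both ways. Of 20 tested members, 4 were higher and 4 lower (median 0.28). Increases included C4b of the classical pathway at 0.85 ± 0.17 (adjusted p = 0.0019), the C1 inhibitor Serping1 at 0.99 ± 0.19 (0.00129) and the terminal component C6 at 1.27 ± 0.32 (0.0115). Mbl2, mannose-binding lectin, which starts the lectin pathway on microbial sugars, ran from 154 to 440 CPM with a median of 406 in p150-negative livers and from 845 to 1936 with a median of 1224 in p150-positive livers. It fell by 1.74 on the log2 scale (± 0.22, adjusted p = 2.07e-05), with separate groups. The lectin protease Masp2 (-0.57 ± 0.16) and the terminal components C8b (-1.14 ± 0.20) and C8g (-1.58 ± 0.33) were lower too, while C3 at 0.50 was not called. Masp2 lost its call when animal 8 or 11 was left out.

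Carrier proteins and protease inhibitors were called lower more often than higher, in 7 and 4 of 27 tested. Serpina3k, the mouse kallistatin-like serpin, ran from 1911 to 4354 CPM (median 2734) against 4824 to 16296 CPM (median 10181), and fell by 1.75 on the log2 scale (± 0.30, adjusted p = 0.000396) while its neighbour Serpina3n rose. Corticosteroid-binding globulin Serpina6 fell (-1.95 ± 0.35, adjusted p = 0.000685) and thyroxine-binding globulin Serpina7 rose (2.06 ± 0.32, 0.000148). Afm, a vitamin E carrier, fell (-1.64 ± 0.24, 6.75e-05). Serpina1e fell the most in the list (-5.06 ± 0.63, 1.71e-05), but Serpina1 and Serpina3 copies are near-identical, so counting can split or drop their reads. Alb at 27922 against 37313 CPM (-0.37 ± 0.23, adjusted p = 0.356) and Apoa1 (0.29 ± 0.25) did not pass.

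Receptors of inflammatory cytokines changed in opposite directions. Of 16 tested genes of interleukin-6 and interleukin-1 reception and STAT3 signalling, 8 were higher and 2 lower (median 0.56). Lifr, the receptor of leukaemia inhibitory factor, ran from 56.4 to 81.8 CPM with a median of 70.0 in p150-negative livers and from 244 to 537 with a median of 373 in p150-positive livers (-2.39 ± 0.20, adjusted p = 3.09e-07). Its sister chain for oncostatin M, Osmr, rose by 1.85, and the shared signalling chain Il6st by 0.66, while Il6ra was not called (-0.26). Without animal 8 Osmr was not called. Il1r2, a decoy receptor that traps interleukin-1, ran from 4.41 to 40.6 CPM (median 12.7) against 0.0 to 1.36 CPM (median 0.0; 5.66 ± 0.76, adjusted p = 3.19e-05). Il1r1, the signalling receptor, rose by 1.65, and its partner Il1rap fell (-0.83 ± 0.20, adjusted p = 0.00954). Stat3 rose by 0.71, the C/EBP family member Cebpd by 1.90 ± 0.27 (6.1e-05), and the feedback inhibitor Socs3 by 2.42 ± 0.43 (0.000583).

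Among NF-kB components and targets 12 of 21 tested were higher and none lower (median 0.94). The target Vcam1, which tethers leukocytes to endothelium, ran from 103 to 224 CPM with a median of 139 in p150-negative livers and from 27.1 to 56.0 with a median of 34.5 in p150-positive livers (2.02 ± 0.20, adjusted p = 1.45e-06). Feedback inhibitors rose as well, with Irak3 at 3.61 ± 0.53 (8.65e-05) and Tnfaip3 at 2.61. The subunits Nfkb2 (1.32) and Relb (1.6) were higher, while Nfkb1 (0.21) was not called. Of 36 chemokines and cytokines 16 were tested, of which 7 were higher and 1 lower. Members low in p150-positive livers could enter the test only through the other group. Cxcl1, which draws neutrophils, rose by 3.92 ± 0.71 (adjusted p = 0.000691), Ccl6 by 2.63 ± 0.32 (1.36e-05) and the alarmin Il1a by 1.44 ± 0.27 (0.000819). Cxcl12, which holds blood cells in bone marrow and is made by endothelium and stroma, fell (-0.91 ± 0.18, adjusted p = 0.00144). With a stricter filter on low counts, 11 NF-kB genes were tested and 5 called. Myeloid cells express many of these genes, and their markers were higher in the same livers (summed monocyte markers 594.7 to 1411 CPM against 134.9 to 258.3 CPM). Their part in these results was not tested.

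**Figure D2:**
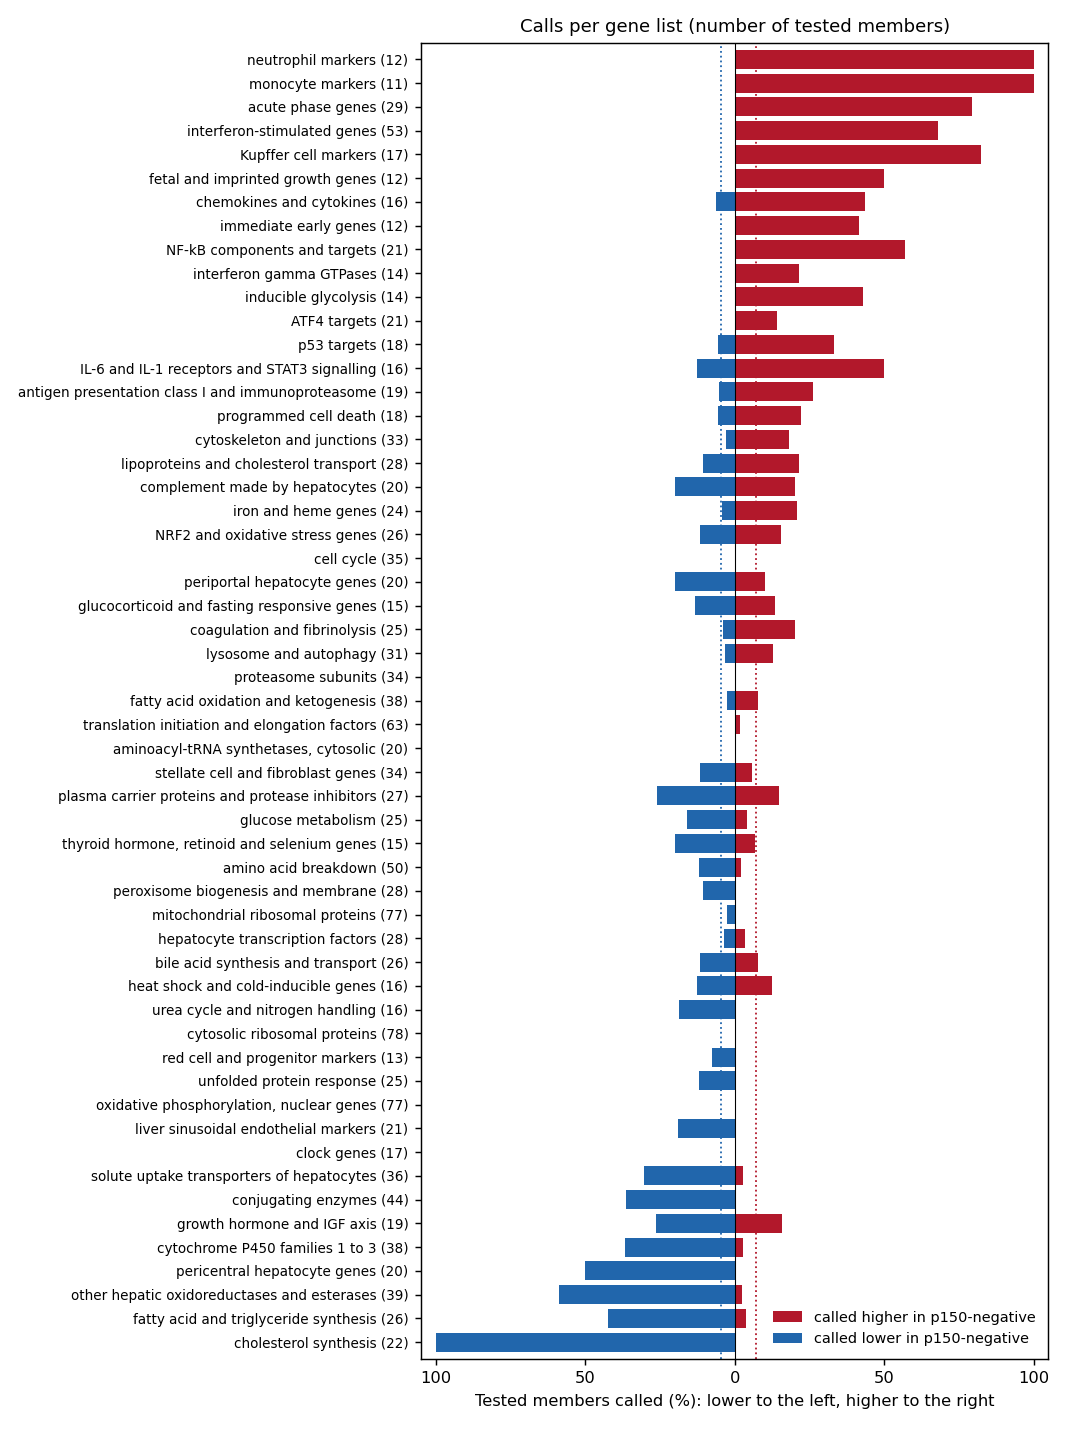
Bars give the share of tested members called higher (red, right) and lower (blue, left) in p150-negative livers for the gene lists with at least 10 tested members, ordered by median log2 fold change; dotted lines are the shares over all 9843 tested genes, 6.94% and 4.76%. All 12 tested neutrophil and 11 monocyte markers were called higher and all 22 tested cholesterol synthesis genes lower, while cell cycle, clock, proteasome and cytosolic ribosomal protein genes had none.

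Markers of myeloid blood cells were higher in p150-negative livers. In bulk tissue, more cells of a type and more RNA per cell cannot be told apart. A marker that is low in p150-positive livers enters the test only through the other group, so the counts below cover the members that could be tested. Of 20 neutrophil markers 12 were tested, and all 12 were higher (median 2.91). Summed over the list, they reached 641.4 to 1922 CPM against 42.8 to 216.2 CPM. Mmp8, the neutrophil collagenase, ran from 16.8 to 113 CPM (median 35.0) against 0.0 to 5.01 CPM (median 2.43), a log2 fold change of 4.47 ± 0.55 (adjusted p = 1.37e-05). S100a8, a subunit of the antimicrobial protein calprotectin, rose by 3.89 ± 0.51 (2.7e-05), and Prtn3, a granule protease made in immature neutrophils, by 2.93 ± 0.39 (3.33e-05).

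All 11 tested of 18 monocyte markers were higher (median 2.23). Their summed levels were 594.7 to 1411 CPM against 134.9 to 258.3 CPM, and 1 member was at 0 in every liver. Ly6c2, the surface mark of inflammatory monocytes, ran from 32.1 to 100 CPM with a median of 52.3 in p150-negative livers and from 0.594 to 9.57 with a median of 4.63 in p150-positive livers (3.63 ± 0.42, adjusted p = 7.21e-06). The chemokine receptor Ccr1 (5.26 ± 0.58) and Ms4a4c (4.49 ± 0.44) rose as well, and Lyz2, lysozyme, rose from 123 to 500 CPM at the mean (2.05 ± 0.26). Resident macrophages differed by gene. Of 19 Kupffer cell markers 17 were tested and 14 were higher (median 1.23), with summed levels of 1603 to 3892 CPM against 612.8 to 1535 CPM. Marco, a scavenger receptor for bacteria, ran from 239 to 700 CPM (median 434) against 22.5 to 63.4 CPM (median 38.0; 3.61 ± 0.27, adjusted p = 7.04e-08). The Kupffer-restricted lectin Clec4f was not called (0.61 ± 0.28, adjusted p = 0.197), nor was Fcna (0.47), while the transcription factor Spic rose by 2.83 ± 0.35 and Timd4 by 1.31. Csf1r, the receptor that macrophages need to survive, rose by 0.84.

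Markers of other cell types gave both higher and lower calls. Of 11 platelet and megakaryocyte markers 4 were tested and 3 were higher (median 1.70), and their summed level had a median of 82.2 CPM in p150-negative and 26.48 CPM in p150-positive livers. Ppbp, a platelet chemokine, ran from 6.82 to 56.2 CPM (median 18.8) against 0.594 to 7.93 CPM (median 3.1), with overlap (2.74 ± 0.48, adjusted p = 0.000499). Of 26 T and NK cell markers and 17 B cell markers, 3 each were high enough to be tested, and none was called. Their summed levels overlapped between genotypes, with T and NK markers at 38.63 to 135.7 against 13.67 to 44.76 CPM and B cell markers at 16.22 to 77.1 against 22.59 to 74.29 CPM. Nkg7 of killer cells came close (1.62 ± 0.53, adjusted p = 0.0521), and Ighm stood at 0.04 ± 0.46 (0.979). None of 6 tested dendritic and MHC class II genes was called, Cd74 standing at 0.36 ± 0.45 (0.702). The globins Hbb-bs (-0.31 ± 0.37) and Hba-a1 (-0.26 ± 0.29), which report red cells in the tissue, were not called, and 1 of 13 red cell genes, Bpgm, was lower, a call lost without animal 3, 4, 6, 10 or 11. Of 21 tested sinusoidal endothelial markers none was higher and 4 were lower (7 without p150-negative animal 1). They were Fcgr2b (-0.72 ± 0.20, adjusted p = 0.0201), Tek (-1.07 ± 0.29, 0.0162), Bmp2 (-1.32 ± 0.37, 0.0231) and Aqp1 (-1.32 ± 0.23, 0.000566). Fcgr2b lost its call without animal 8, and Bmp2 without animal 3, 4, 8 or 14. Stab2, a scavenger receptor of the same cells, was not called (0.23 ± 0.27).

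Matrix genes gave no common direction, with 2 of 34 tested stellate cell and fibroblast genes higher and 4 lower. The shares over all tested genes were 6.94% and 4.76%. Fibronectin Fn1 rose by 0.83 ± 0.21 (adjusted p = 0.0109), and Col1a2, a chain of type I collagen, fell (-0.94 ± 0.24, 0.0141), as did Reln (-1.48 ± 0.27, 0.00082), a mark of stellate cells.  Krt18, Anxa2 and Anxa5 were the 3 of 8 tested ductular genes that rose (1.19, 1.48 and 0.84). Krt18 is also made by hepatocytes, and the annexins by many cells. Anxa5 was not called without animal 4, 6, 8, 9, 10 or 14. Among cytoskeletal genes Anxa1 (2.39 ± 0.26, 4.12e-06) and Lgals3 (2.41 ± 0.31, 2.26e-05), both abundant in myeloid cells, were among 6 increases of 33 tested. Gjb1, the hepatocyte gap junction protein, fell (-0.73 ± 0.18, adjusted p = 0.0111).

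**Figure D3:**
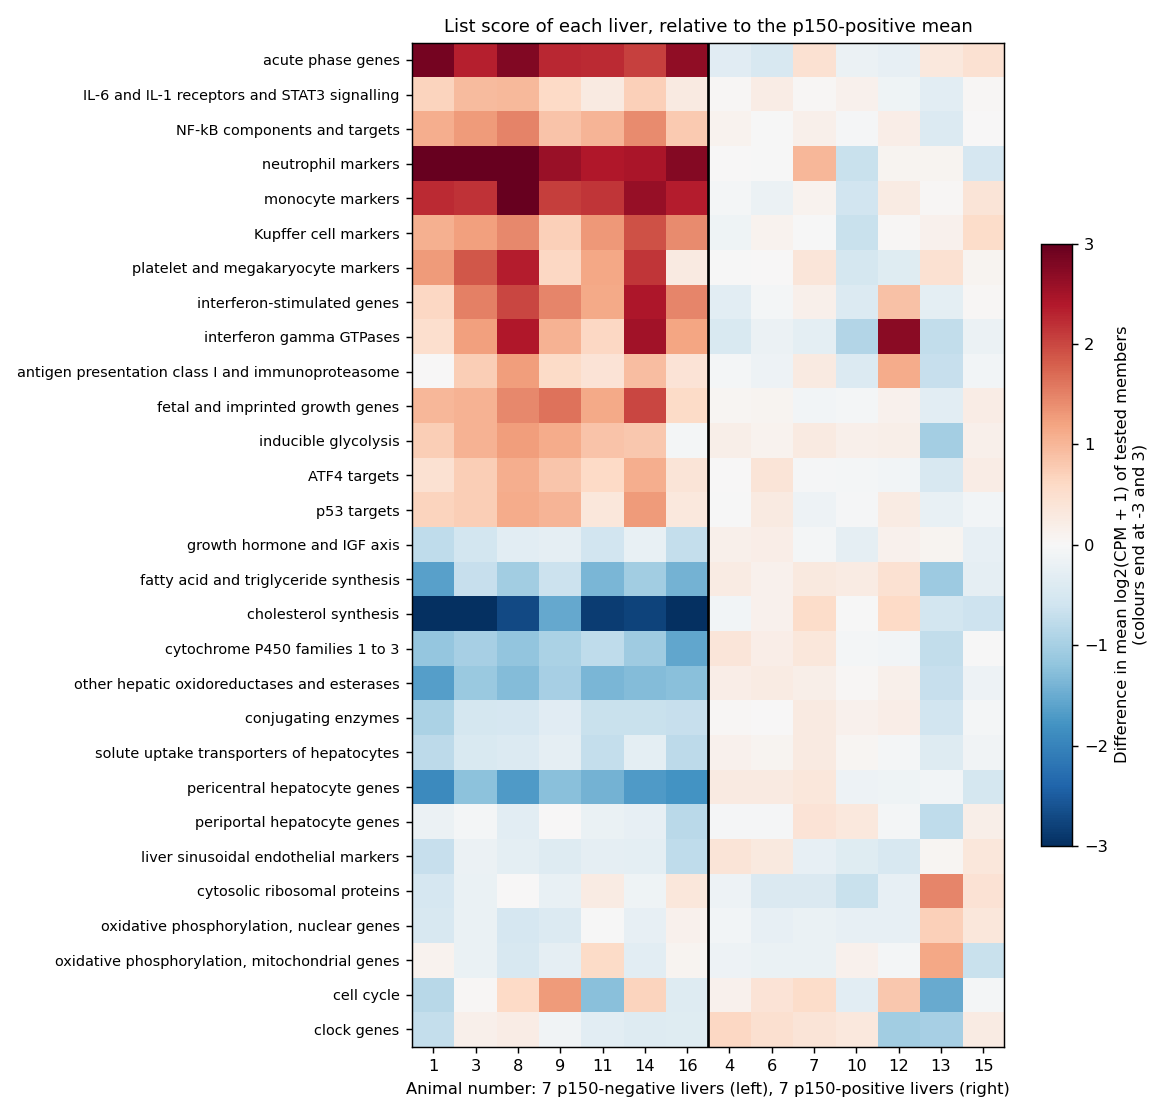
Columns are the 14 livers by animal number and rows are gene lists; colour is a liver's mean log2(CPM + 1) over the tested members minus the mean of the 7 p150-positive livers. The acute phase and myeloid rows separate the genotypes in every liver; animal 12 stands out among p150-positive livers for interferon-gamma GTPases (score 7.07), and animal 13 for ribosomal proteins (7.72).

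Messages for circulating IGF1 and its stabilising partner were lower, and binding proteins were higher. Of 19 tested genes of the growth hormone and IGF axis, 5 were lower and 3 higher (median -0.55). Lifr, given above with the cytokine receptors, was among the lower genes. Igf1, the circulating growth factor itself, ran from 157 to 468 CPM with a median of 270.0 in p150-negative livers and from 966 to 2292 with a median of 1119 in p150-positive livers (-2.11 ± 0.27, adjusted p = 1.97e-05). Igfals, which holds IGF1 in its long-lived plasma complex, fell (-3.27 ± 0.32, 1.45e-06), as did the growth hormone receptor Ghr (-1.55 ± 0.16, 2.44e-06) and the prolactin receptor Prlr (-1.67 ± 0.21, 2.33e-05). Groups were separate for each of these. Igfbp1, a binding protein that rises with fasting and low insulin, ran from 693 to 4977 CPM (median 1536) against 21.3 to 374 CPM (median 166; 3.58 ± 0.61, adjusted p = 0.000371). Igfbp2 ran from 1920 to 4473 CPM (median 2504) against 252 to 1056 CPM (median 1003; 1.82 ± 0.30, 0.000304), where the value of 252 is animal 13. Socs2, a target and brake of growth hormone signalling, was not called (-1.03 ± 0.41, 0.123). The adaptor Grb10, which damps insulin and IGF receptors, rose by 1.34 ± 0.29 (0.00303).

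The promoter of Igfals is shown because growth hormone acts on it through STAT5, and STAT factors bind the palindrome TTCNNNGAA, in capitals.
Igfals (chr17:24877594-24877893, plus strand): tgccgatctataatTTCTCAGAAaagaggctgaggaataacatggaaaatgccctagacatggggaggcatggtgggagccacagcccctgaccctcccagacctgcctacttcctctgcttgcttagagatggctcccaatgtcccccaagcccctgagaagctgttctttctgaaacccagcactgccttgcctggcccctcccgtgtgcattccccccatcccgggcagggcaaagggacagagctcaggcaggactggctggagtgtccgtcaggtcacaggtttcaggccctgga
The match began at -236. This motif was common: 8.47% of all promoters, 6.83% of tested genes, 8.56% of genes called higher and 5.79% of genes called lower held it, and among 18 promoters of the axis 2 did. Lepr, the leptin receptor, whose soluble form binds leptin in plasma, ran from 81.0 to 758 CPM with a median of 192 in p150-negative livers and from 6.56 to 40.5 with a median of 15.6 in p150-positive livers (3.96 ± 0.52, adjusted p = 2.93e-05). The groups were separate, and animal 1 was the highest. Thyroid hormone supply genes fell in 3 of 15 tested cases with 1 higher. Dio1, which makes active thyroid hormone, fell (-1.94 ± 0.34, adjusted p = 0.000516).

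Of 27 fetal liver and imprinted growth genes 12 were tested, and 6 of these were higher and none lower (median 1.15). The share higher over all tested genes was 6.94%. A gene that is low in p150-positive livers enters the test only through the other group, which favours higher calls. Gpc3, a fetal glypican of hepatocytes, stood at 157 against 19.3 CPM (3.10 ± 0.35, adjusted p = 5.56e-06), and the imprinted gene Peg3 at 70.9 against 14.1 CPM (2.31 ± 0.38, 0.000261). Afp, alpha-fetoprotein, rose by 3.04 ± 0.61 (0.00186) with overlapping groups, and Mest by 1.5 ± 0.38 (0.0126). H19, which is also imprinted, was not called (0.48 ± 0.65, adjusted p = 0.733). None of 35 tested cell cycle genes was called. Mcm6 stood at 0.53 ± 0.36 (0.425) and Tk1 at -0.32 ± 0.25 (0.497).

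Of 26 tested fatty acid and triglyceride synthesis genes, 11 were lower and 1 higher (median -0.92). Thrsp, a small regulator of lipogenesis that follows thyroid hormone and carbohydrate, ran from 1.52 to 31.7 CPM with a median of 3.17 in p150-negative livers and from 305 to 1927 with a median of 1377 in p150-positive livers (-7.29 ± 0.67, adjusted p = 7.29e-07). The lowest p150-positive value, 305, was animal 13. Fasn, fatty acid synthase, fell (-2.65 ± 0.43, 0.000239), with Acss2 (-2.96 ± 0.36, 1.16e-05) and Elovl6 (-2.18 ± 0.29, 3.23e-05). The increase was Cidec, a lipid droplet protein, which ran from 10.0 to 197 CPM (median 54.5) against 2.32 to 6.04 CPM (median 2.97; 4.73 ± 0.58, 1.38e-05). Cd36, which takes up fatty acids and is on none of the lists, ran from 218 to 510 CPM (median 325) against 43.5 to 87.5 CPM (median 64.6; 2.53 ± 0.24, 9.37e-07). Both of these had separate groups. Plin2, the coat protein of most droplets, was not called (0.95).

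Of 38 tested fatty acid oxidation and ketogenesis genes 3 were higher and 1 lower, with a median of 0.08. Over all tested genes 6.94% were higher and 4.76% lower, so this count lay near the background. Acot2, a mitochondrial thioesterase, rose by 2.36 ± 0.47 (adjusted p = 0.00154), Vnn1 by 1.51 ± 0.35 (0.00611) and the carnitine carrier Slc22a5 by 1.30 ± 0.36 (0.0199). Slc22a5 lost its call without animal 1 or 3. Acsl1, which activates fatty acids, fell (-1.20 ± 0.29, 0.00774), and the rate-limiting Cpt1a (0.71 ± 0.26, 0.086) was not called. The main apolipoproteins Apob (0.16 ± 0.18) and Apoe (0.37 ± 0.22) were not called. Apoa4, which rises with lipid export, ran from 103 to 704 CPM (median 323) against 9.29 to 39.4 CPM (median 14.9; 4.37 ± 0.47, adjusted p = 3.26e-06). The sterol exporters Abcg1 (1.44 ± 0.39, 0.0186) and Abcg5 (0.76 ± 0.22, 0.0247) rose. The count of 6 higher lipoprotein genes of 28 tested fell to 3 without p150-negative animal 1 and to 2 without animal 11; Abcg5 lost its call without animal 1, 8 or 11.

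Glucose genes were called lower more often than higher, and 3 genes of glucose production were not called. Pklr, liver pyruvate kinase (-2.53 ± 0.44, 0.000516), and Pygl, glycogen phosphorylase (-0.96 ± 0.19, 0.00143), were lower. Pck1 (0.26 ± 0.28, adjusted p = 0.64), G6pc (0.22 ± 0.57, 0.878) and Fbp1 (-0.04 ± 0.22, 0.947), which make glucose, were not called. Of 25 tested glucose genes, 4 were lower and 1 higher, where 4.76% of all tested genes were lower and 6.94% higher. The gene called higher was the insulin receptor substrate Irs2 (1.34 ± 0.39, 0.0284), whose call was lost without animal 1, 4, 7, 9 or 14. On a separate list of inducible glycolysis genes, 6 of 14 tested were higher and none lower (median 0.76). Pfkp, the platelet-type phosphofructokinase, ran from 11.3 to 79.1 CPM (median 57.8) against 0.304 to 10.9 CPM (median 4.41; 3.23 ± 0.49, 0.00014). Ldha, lactate dehydrogenase, ran from 2872 to 4734 CPM (median 3750.0) against 1151 to 2527 CPM (median 2059; 1.04 ± 0.20, 0.00137).

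**Figure D4:**
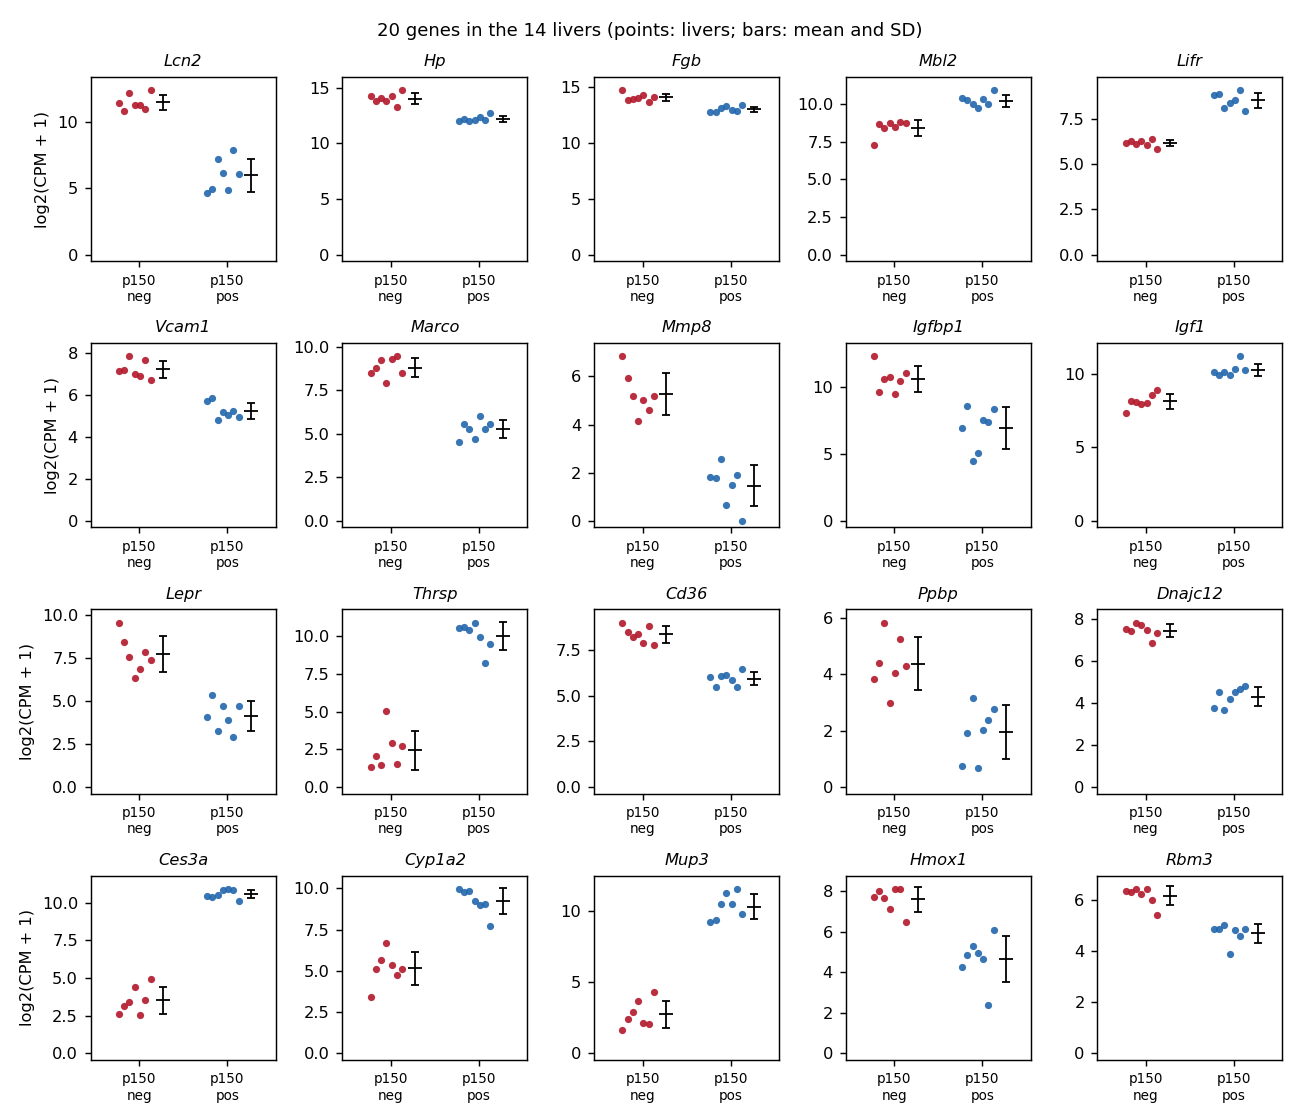
Each panel is 1 gene and each point 1 liver, as log2(CPM + 1) on the y axis, with the mean and SD of the 7 livers of a genotype beside the points. Groups overlap for Ppbp, where p150-negative livers range from 6.82 to 56.2 CPM, and are separate for the other 19 genes.

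Of 50 tested amino acid breakdown genes, 6 were lower and 1 higher (median -0.20), where 4.76% of all tested genes were lower and 6.94% higher. The gene called higher was Dnajc12 (chr10:63382443-63410576), a co-chaperone of the aromatic amino acid hydroxylases, which ran from 114 to 225 CPM with a median of 177 in p150-negative livers and from 11.7 to 26.5 with a median of 21.7 in p150-positive livers (3.21 ± 0.24, adjusted p = 5.5e-08). The groups were separate. The decreases included Csad, of taurine synthesis (-2.44 ± 0.42, 0.000426), Prodh, which opens proline breakdown (-1.84 ± 0.29, 0.000161), and Haao, of NAD synthesis from tryptophan (-1.02 ± 0.19, 0.000748). Of 16 tested genes of the urea cycle and nitrogen handling 3 were lower and none higher. Car5a, the mitochondrial carbonic anhydrase that supplies bicarbonate to the urea cycle, ran from 4.06 to 14.7 CPM (median 9.63) against 31.6 to 82.0 CPM (median 74.9; -2.74 ± 0.27, adjusted p = 1.39e-06). The urea cycle enzyme Ass1 (-0.94 ± 0.28, 0.0299) and Glul, which makes glutamine (-1.56 ± 0.33, 0.00303), fell too, and the entry enzyme Cps1 was not called (0.17 ± 0.29, 0.799). Ass1 lost its call without animal 7, 8, 10, 14 or 16. Without animals 12 and 13, 10 breakdown genes were lower.

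Enzymes of drug and steroid metabolism were lower. Of 38 tested cytochrome P450 genes of families 1 to 3, 14 were lower and 1 higher (median -0.72). The summed level of the list was 12260 to 22010 CPM against 18210 to 31120 CPM, so the groups overlapped as a sum. Cyp1a2, which metabolises caffeine and is pericentral, ran from 9.63 to 103 CPM with a median of 33.8 in p150-negative livers and from 207 to 1005 with a median of 600.0 in p150-positive livers (-3.95 ± 0.40, adjusted p = 1.97e-06). Cyp2c69 ran from 1.6 to 24.3 CPM (median 9.12) against 190 to 593 CPM (median 408; -5.16 ± 0.42, 2.17e-07). Close paralogs in the Cyp2c family can share reads, so single members are uncertain. The abundant Cyp2e1 (-0.81 ± 0.29, adjusted p = 0.0812) and Cyp3a11 (-0.43 ± 0.28, 0.407) were not called, and Cyp3a13 rose by 1.09 ± 0.25 (0.00647).

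Other oxidoreductases and esterases were lower in 23 of 39 tested cases and higher in 1, with a median of -0.90 and summed levels of 11800 to 19360 against 20280 to 29860 CPM. Ces3a (chr8:105048601-105058413), a carboxylesterase that hydrolyses triglyceride, ran from 4.93 to 30.1 CPM with a median of 9.59 in p150-negative livers and from 1127 to 1947 with a median of 1443 in p150-positive livers (-7.08 ± 0.39, adjusted p = 1.36e-09). Ces3b, its near copy, fell alongside (-7.14 ± 0.48, 2.03e-08), and reads of the pair may be shared. Of 44 tested conjugating enzymes 16 were lower and none higher (median -0.51), including the glucuronosyltransferase Ugt2a3 (-1.87 ± 0.18, 1.45e-06) and the sulfotransferase Sult2a8 (-2.47 ± 0.30, 1.19e-05).

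Uptake transporters followed, with 11 of 36 tested lower and 1 higher. Aqp8, a water channel, fell (-2.88 ± 0.45, adjusted p = 0.000172). The increase was Slc41a2, a magnesium transporter (2.67 ± 0.45, 0.000335). Of 26 tested genes of bile acid handling 2 were higher and 3 lower, where 6.94% of all tested genes were higher and 4.76% lower. The uptake carriers Slco1a1 (-3.14 ± 0.58, 0.000837) and Slco2b1 (-1.83 ± 0.30, 0.000307) and the export pump Abcb11 (-0.89 ± 0.19, 0.00406) were lower. The basolateral exporter Slc51b was higher (2.25 ± 0.54, 0.00816). Cyp7a1, the rate-limiting enzyme of bile acid synthesis, was not called (-1.35 ± 0.49, adjusted p = 0.0878).

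Major urinary proteins, pheromone carriers that rise at puberty, could be tested for 2 of 21 copies. Near-identical copies can share reads, so single members are uncertain, and without a filter on low counts 8 were lower. Mup3 ran from 2.03 to 18.8 CPM with a median of 4.36 in p150-negative livers and from 604 to 2978 with a median of 1394 in p150-positive livers (-7.95 ± 0.57, adjusted p = 4.32e-08). Mup20 fell as well (-4.20 ± 0.67, 0.000213). By position in the lobule, 10 of 20 tested pericentral genes were lower and none higher (median -0.85), and 4 of 20 periportal genes were lower and 2 higher (median 0.13). Pericentral decreases included Lect2 (-1.81 ± 0.26, 6.75e-05) and Rgn, regucalcin (-1.43 ± 0.21, 7.02e-05). Periportal Cyp2f2 also fell (-1.70 ± 0.27, 0.000172), while periportal Hsd17b13, a lipid droplet enzyme, rose by 0.98 ± 0.19 (0.0013). The difference between the lobule lists was not tested. Hepatocyte transcription factors were mostly not called, with 1 of 28 higher, Ppargc1a (0.92 ± 0.27, 0.0273), and 1 lower, Cebpa (-1.19 ± 0.27, 0.00451). Ppargc1a lost its call without animal 1, 4, 6, 8, 14 or 16. Hnf4a, the master regulator of the cell type, stood at 225 against 261 CPM (-0.18 ± 0.21, 0.672).

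ATF4 is a transcription factor that acts when amino acids are short. Of 21 tested ATF4 targets 3 were higher and none lower (median 0.73), where 6.94% of all tested genes were higher. Asns, asparagine synthetase, ran from 41.3 to 138 CPM with a median of 100 in p150-negative livers and from 3.86 to 16.4 with a median of 7.12 in p150-positive livers (3.40 ± 0.34, adjusted p = 1.86e-06). Its promoter is shown with the C/EBP-ATF element TGATGNAA in capitals, through which ATF4 is known to act on this gene.
Asns (chr6:7693160-7693459, minus strand): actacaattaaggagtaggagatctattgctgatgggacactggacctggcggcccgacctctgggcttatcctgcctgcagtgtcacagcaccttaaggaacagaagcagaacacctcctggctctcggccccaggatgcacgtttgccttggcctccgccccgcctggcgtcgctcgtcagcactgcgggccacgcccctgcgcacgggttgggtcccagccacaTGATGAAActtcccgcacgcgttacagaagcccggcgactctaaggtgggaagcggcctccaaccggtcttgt
The match began at -23. Of 19 ATF4 targets with a promoter 6 held the element (31.6%), against 2.17% of tested genes, 4.37% of genes called higher and 4.06% of all promoters. Trib3 rose by 2.24 ± 0.43 (adjusted p = 0.00116) and Ddit3 by 1.42 ± 0.42 (0.0322), both with overlap. Ddit3 was not called without animal 4, 6, 7, 8, 11, 12, 14 or 16. Without p150-positive animal 13, and likewise without p150-positive animal 15, 5 targets were higher. In the unfolded protein response 3 of 25 tested genes were lower and none higher (median -0.27), where 4.76% of all tested genes were lower. They were Manf (-0.98 ± 0.24, 0.00846), Creld2 (-0.92 ± 0.25, 0.017) and Dnajb11 (-0.59 ± 0.17, 0.0282). Dnajb11 was not called without animal 3, 4, 6, 8, 10, 12 or 14.

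Of 16 tested heat shock and cold-inducible genes, 2 were higher and 2 lower (median -0.23), and the others were not called. Rbm3, an RNA-binding protein that rises when tissue cools, ran from 41.3 to 85.9 CPM with a median of 78.1 in p150-negative livers and from 13.7 to 31.3 with a median of 27.8 in p150-positive livers (1.56 ± 0.20, adjusted p = 1.79e-05). Cirbp, of the same class, rose by 1.54 ± 0.32 (0.00239). The chaperones Dnaja1 (-0.73 ± 0.15, 0.00264) and Hsph1 (-1.10 ± 0.27, 0.00994) fell. Hmox1, heme oxygenase, which degrades heme, ran from 88.3 to 277 CPM (median 207) against 4.24 to 67.5 CPM (median 27.7; 2.83 ± 0.38, 3.51e-05). Animal 13 held the lowest p150-positive value. Of 24 tested iron and heme genes 5 were higher, among them Slc11a1, the phagosomal iron transporter (2.38 ± 0.38, 0.000242), and Slc39a14, which imports iron and zinc (0.88 ± 0.20, 0.00601). Tmprss6, a suppressor of hepcidin, fell (-0.63 ± 0.16, 0.0129).

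Some early response, growth arrest and death genes rose. Of 12 tested immediate early genes 5 were higher, with Jun at 2.46 ± 0.40 (adjusted p = 0.000239). Without p150-negative animal 14 the count was 3. Of 18 tested p53 targets 6 were higher and 1 lower. Btg2, an antiproliferative gene, stood at 182 against 27.7 CPM (2.74 ± 0.25, 6.04e-07), and Cdkn1a, the cell cycle inhibitor p21, at 83.4 against 21.3 CPM (1.97 ± 0.45, 0.00561). In the death list 4 of 18 were higher and 1 lower, and the smallest of the 4 increases was Mcl1 (0.55 ± 0.16, adjusted p = 0.0301). Tnfrsf12a, receptor of the cytokine TWEAK, rose by 2.20 ± 0.32 (6.75e-05), and Mlkl, which opens the membrane in necroptosis, by 1.5 ± 0.44 (0.0286). Casp1, of pyroptosis, rose by 1.42 ± 0.36 (0.0125) and Casp9, of mitochondrial apoptosis, fell (-1.07 ± 0.28, 0.0153). Mlkl lost its call without animal 4, 6, 7, 8, 10 or 14, and Casp1 without animal 8.

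Housekeeping machinery gave few calls. None of 78 tested cytosolic ribosomal protein genes was called (68 with a negative log2 fold change, median -0.25), nor of 77 nuclear (75 negative, median -0.28) and 8 mitochondrial genes of oxidative phosphorylation. Animal 13 moved with these values: its ribosomal list score was 7.72, against 5.59 to 6.69 in the other p150-positive livers, and its nuclear oxidative phosphorylation score was 8.54, against 7.58 to 8.17. The part of that library in the negative medians was not tested beyond the fits without it. None of 34 proteasome subunits (median 0.09), 20 cytosolic aminoacyl-tRNA synthetases (-0.02) and 17 clock genes (-0.35) was called, but without animals 12 and 13, 5 clock genes were lower. Abundant genes with narrow intervals included Ahsg, fetuin-A (12938 against 13086 CPM, 95% interval -0.35 to 0.48) and Prdx1 (-0.49 to 0.28). Of all tested genes 725 (7.37%) had such an interval within 0.5 log2 units of 0 and no call.

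Outside any list lay 455 of the 683 higher and 295 of the 469 lower genes. The lists held only 1531 of the 9843 tested genes. Most tested genes thus lay outside them too, in a larger share than the calls did. Called genes outside the lists were ranked only above a minimum mean level and with separate groups. Predicted genes, Y-linked genes and Xist were left out. The largest increase so ranked was Igdcc4 (chr9:65101486-65137940), a neural cell adhesion protein also called Nope that marks fetal liver stem and progenitor cells. It ran from 18.7 to 46.8 CPM with a median of 39.7 in p150-negative livers and was at 0 in all p150-positive livers but animal 7, at 2.92 CPM (6.5 ± 0.65, adjusted p = 1.45e-06). Next came Ubd, a ubiquitin-like modifier induced by cytokines (4.95 ± 0.67), the anion exchanger Slc4a9 (4.91 ± 0.74), Ifitm6 (4.82 ± 0.54) and the unconventional myosin Myo15b (4.76 ± 0.55). Several others are receptors or enzymes of myeloid cells, such as Cd300lf (3.83 ± 0.45), Lilr4b (3.71 ± 0.49), Cd300e (3.32 ± 0.40) and Aoah, which inactivates lipopolysaccharide (3.30 ± 0.55). Bmper, an extracellular modulator of BMP signals, rose by 4.42 ± 0.49 and the fatty acid receptor Ffar4 by 3.23 ± 0.39.

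By the same ranking, the largest decrease outside the lists was Mfsd2a (chr4:122946850-122961188), a carrier of lysophospholipids. It ran from 0.0 to 3.21 CPM with a median of 1.71 in p150-negative livers and from 15.0 to 109 with a median of 49.9 in p150-positive livers (-4.98 ± 0.45, adjusted p = 6.04e-07). Csrp3 fell (-3.36 ± 0.32, 9.37e-07), with the fatty acid hydroxylase Cyp4f14 (-3.10 ± 0.31, 1.45e-06), the retinol reductase Rdh11 (-2.54 ± 0.27, 2.61e-06), Ido2 of tryptophan breakdown (-2.16 ± 0.28, 2.32e-05) and Erg28, a scaffold of sterol synthesis (-1.66 ± 0.17, 2.44e-06). Mcm10, of replication origins, fell (-2.14 ± 0.34, 0.000197) although no gene of the cell cycle list was called. Among peroxisomal genes 3 of 28 tested were lower, where 4.76% of all tested genes were lower. Nudt7, which hydrolyses coenzyme A, ran from 41.1 to 118 CPM (median 65.4) against 293 to 928 CPM (median 567; -3.05 ± 0.30, 1.45e-06).

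Interferon-stimulated genes were higher and sterol synthesis genes lower. Of 53 tested interferon-stimulated genes 36 were higher and none lower (median 1.58), and all 22 tested cholesterol synthesis genes were lower (median -2.70). Of 14 interferon-gamma GTPases 3 were higher. The p150-positive liver of animal 12 had a score of 7.07 for that list, above the 3.47 to 4.19 of the other p150-positive livers, and without it 12 were higher. Likewise 5 of 19 class I antigen presentation genes were higher with it and 10 without it.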

How the data were processed

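RNA from liver was made into Nextera XT libraries, per the labels' protocols. The authors deposited whole-number read counts per gene; per the submitters' processing notes they used STAR 2.4.2a, HTSeq 0.4.1, Picard 1.134, FastQC 0.11.3 and SAMtools 1.2 on GRCm38 (mm10). Strand settings and isoform counts are not given in the sources used here, so overlapping and near-identical genes are uncertain. The table held 53471 entries, with 6 identifiers listed 2 times and 3433 without a symbol (0.267% of counts), and its 46 columns were matched to samples by name. CPM scales counts to a common library total.

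Genes passing filterByExpr (minimum count 10, minimum total 15) were fitted with edgeR 4.0.16 (TMM, quasi-likelihood; R 4.3.3) on the 14 livers, Benjamini-Hochberg adjusted over all 9843 tested genes, with a threshold of 0.05. Fold changes are log2, p150-negative over p150-positive, with SE. DESeq2 1.42.0 and limma 3.58.1 served as alternatives. Single measures were tested by two-sided exact permutation over 3432 regroupings. The distances within a group were kept fixed on regrouping, so their p is not exact. The fit was tested on simulated data. Coordinates are from GENCODE M21, and promoters from RefSeq (GRCm38.p6) matched 7726 of 9843 tested genes. Each 95% interval is a confidence interval of the log2 fold change between genotypes, from the SE of the fit. It reflects the spread between animals but is not the range of single livers.

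Named genes were up to 4 called members per list and direction by smallest p, abundant uncalled members, the 20 largest changes each way outside the lists, and abundant genes with narrow intervals. Changes outside the lists were ranked among called genes above a minimum mean level with separate groups. Predicted genes, Y-linked genes and Xist were left out of that ranking. Other named genes were chosen after their values were seen. The members and lists were chosen with earlier results of these data known. Lists share some members, such as Lifr, Aqp1, Mup3 and Cyp1a2, so their counts are not independent. Some genes are not reported here.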

Additional observations from a re-analysis of the deposited data

Results flagged for a closer look

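The 82 sets of 7 livers were 38 of the genes given by liver, in each genotype, and the sample measures. Igf1 was not among them. In p150-positive livers it was 2292 CPM in animal 13, with the next at 1250 CPM and the lowest at 966 CPM. Gaps and ranges of genes were taken on log2(CPM + 1), while the gene values printed below are CPM. Sample measures were taken as they are. Of the sets, 9 held a liver whose gap to its nearest neighbour was more than 0.568 of the range of the set. Chance gives about 1 in 20 sets. In p150-negative livers, Mbl2 was 154 CPM in animal 1 (next 335), Thrsp was 31.7 CPM in animal 9 (next 6.58), and Pfkp was 11.3 CPM in animal 16 (next 34.8). In p150-positive livers, Igfbp2 was 252 CPM in animal 13 (next 821), Cyp1a2 was 207 CPM in animal 15 (next 513), Rbm3 was 13.7 CPM in animal 10 (next 22.8) and Igdcc4 was 2.92 CPM in animal 7 with all others at 0. The distance of a liver from the rest of its group was 0.108 for p150-negative animal 16 (next 0.064) and 0.174 for p150-positive animal 13 (next 0.07).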

How the results depend on the processing

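Over 27 alternatives, 116 of 172 named genes called in the fit kept their call in each. Adding the library of animal 2 ended 45 calls, among them Hp, Hpx, Fgb and Mbl2. In some other alternative 18 genes lost their call. Not all of these were near the threshold, since Casp1 had an adjusted p of 0.0125 in the main edgeR fit. The number of genes higher was 1059 with DESeq2 and 441 with animal 2 added, and the number lower was 299 with animal 2 added. At least 2-fold increases numbered 853 with DESeq2, 803 without a filter and 317 with the stricter filter, and at least 2-fold decreases 406 without a filter. Leaving out 1 liver at a time gave 552 to 838 genes higher and 352 to 651 lower. Without p150-positive animals 12 and 13 there were 863 and 655, and without animals 13 and 16, a choice made after seeing the data like the former, 794 and 642. Of list counts, 278 of 3564 moved by more than 1.5 times. The difference in distance from the group (main -0.00706) was 0.0407 with animal 2 and ran from -0.0148 to 0.0131 on leaving out 1 liver, turning positive without animal 13. The difference in the share of the 20 most abundant genes was 3.04 percentage points with animal 2. The difference in genes detected after thinning ran from -68.6 to 274 on leaving out 1 liver. The 274 came without p150-negative animal 16, the shallowest. The other livers were then thinned to a greater depth (9028 against 8754 genes), so that value is not comparable with the main one. The difference was -14.5, -68.6 and -33.3 without p150-negative animals 3, 8 and 14 and -16.2 without p150-positive animal 13. The cause of these changes of sign was not tested. Genes near 0 changed sign. On leaving out 1 liver the log2 fold change ran from -0.08 to 0.30 for Cps1, -0.03 to 0.14 for Agt, -0.67 to 0.24 for Ighm, -0.21 to 0.70 for Cd74, -0.29 to 0.50 for G6pc, -0.20 to 0.04 for Fbp1 and -0.09 to 0.15 for Ahsg. With animal 2 added it was -0.04 for Cps1 and Apob, -0.13 for Agt, -0.17 for Ighm, -0.14 for Ahsg and 0.09 for Aqp1, the 1 called gene that changed sign. With limma voom it was -0.00 for Cps1, -0.31 for Ighm and -0.54 for G6pc. Ighm was -0.42 with Xist as a covariate, -0.02 without the shallowest library, -0.09 without animals 12 and 13 and -0.10 without 13 and 16; Ahsg was -0.03 and -0.02 in the last pair of fits. No paired analysis was possible because the genotypes share no animal number in liver; with the identifier prefix as a block 823 genes were higher and 591 lower.

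Depth limits low genes: the shallowest liver, of p150-negative animal 16, held 532311 counts.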
